A study of Homo sapiens with 4 samples.

Results

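EGR1, EGR2, EGR3, IER2, IER3, IER5, KLF2, KLF4, KLF6 and NR4A1 are immediate-early genes, which growth factors and serum switch on within minutes without the synthesis of new protein. These 10 genes were taken by symbol from a list of serum-induced early genes outside the FOS and JUN (AP-1) family, out of 32955 genes in the deposited table. All 10 were found in the table. Of these, 7 had a mean RPKM (reads on a gene divided by the kilobases of its exons and by the counted reads of the library) of at least 1 over the libraries and entered the tests, as did 13871 genes in all. EGR2, EGR3 and KLF2 were below that level and are described by their reads.

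RNA-seq was performed on 4 libraries labelled as the human breast cancer line MDA-MB-231 to learn which mRNAs differ after miR-217 mimic. The 2 libraries of mimic NC came from cells transfected with a negative control oligonucleotide, and the 2 libraries of miR-217 mimic came from cells transfected with a synthetic form of miR-217. All cells were thus transfected, and all were cultured in DMEM medium with fetal bovine serum. The libraries of both groups carry the replicate numbers 1 and 2 in the labels. The labels do not say what kind of replicate is meant or whether the cultures were separate. The p-values therefore measure only the spread between these libraries, which may be technical. A single cell line was used, its identity was taken from the labels, and untransfected cells were not analysed here. Both comparisons below, miR-217 mimic against mimic NC and number 2 against number 1, use the same 4 libraries.

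In resting cells the promoters of many immediate-early genes are already occupied by SRF (serum response factor), which binds a DNA element called the CArG box. ERK phosphorylates the ETS-type partners of SRF, the ternary complex factors, and transcription follows within minutes. Actin acts through other partners of SRF, the MRTF proteins, and the cAMP pathway acts through CREB at the CRE element. The induced mRNAs are short-lived, in part because of AU-rich elements in their 3'UTRs, and their products include transcription factors such as the EGR, KLF and NR4A proteins that start the next wave of genes.

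The sequences that bear on these genes are the CArG boxes in their promoters and the match to miR-217. The RefSeq promoters used, on GRCh38.p14, are 300 bases long and lie around a start site. Of the 10 genes, 8 had an entry, while EGR3 and IER3 had none and were not searched for any motif. A CArG box was found in EGR1 and in EGR2. These boxes are shown because SRF occupies the promoters of many immediate-early genes. No CArG box was found in the windows of IER2, IER5, KLF2, KLF4, KLF6 or NR4A1. The capitals mark the box, with its neighbouring bases in lower case.
EGR1 box 1, chr5:138465364-138465393, plus strand: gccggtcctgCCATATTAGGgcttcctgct
EGR1 box 2, chr5:138465386-138465415, plus strand: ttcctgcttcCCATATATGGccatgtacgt
EGR2 box, chr10:62816418-62816447, minus strand: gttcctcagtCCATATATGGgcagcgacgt

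The first EGR1 box lies 105 to 96 bases before the start site and the second lies 83 to 74 bases before it. The EGR2 box lies 71 to 62 bases before the start of 1 of its 3 listed promoters. A CArG box was present in 1.60% of the 27305 genes with a promoter entry and in 1.45% of the 8350 of them that were tested. At least 2 boxes in 1 promoter, as in EGR1, were present in 11 genes, or 0.0403%.

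The second sequence of interest is miR-217-5p itself, which is encoded at chr2:55983020-55983042 on the minus strand of GRCh38.p14 (RefSeq). Its seed, bases 2 to 8, is in capitals, and the seed match in an mRNA reads ATGCAGT. In the longest 3'UTR of each gene in GENCODE 29 on GRCh38, this match occurred in EGR1 alone of the 10 genes, compared with 14.5% of the 9911 tested genes that have a 3'UTR there. The EGR1 match, also in capitals, lies 1070 to 1076 bases after the stop codon and is not followed by the A that would make it an 8-base match.
hsa-miR-217-5p: uACUGCAUcaggaacugauugga
EGR1 3'UTR, chr5:138469141-138469170, plus strand: tgttatgaacATGCAGTtcattattttgtg

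The recovered totals were 32635814 to 57933183 reads per library, lowest in the second miR-217 mimic library, so low genes are least precise there. Along the first principal component, with 71.3% of the variance, the libraries fell apart by number. Of the markers of the line, VIM (27.9 to 36.9 RPKM), CD44, CAV1 and MSN were present in all libraries. ESR1, the estrogen receptor that the line lacks, was at 0.0294 to 0.0756 RPKM and CDH1 at 0.169 to 0.433, whereas EPCAM and ERBB2, listed like KRT8 as low or absent in the line, were at 3.90 to 7.41 and 2.27 to 3.23 RPKM. Some markers of the line and of other cells moved with the number. Among those of the line, MSN was at 154 to 157 RPKM in the libraries numbered 1 and 93.5 to 104 in those numbered 2, CD44 was higher in both libraries numbered 2 (at least 17.3 against 13.5 and 14.6), CAV1 was at 7.75 to 7.92 and 5.17 to 5.35, and VIM overlapped. Of the markers listed as low or absent, KRT8 was at 393 to 421 and 154 to 165 RPKM, and CDH1 and ERBB2 were also lower in both libraries numbered 2. The sum of 2 endothelial markers was 3.11 to 3.56 and 1.15 to 1.35, nearly all of it CDH5, whereas PECAM1 was at 0.0507 to 0.138 and highest in miR-217 mimic 2. The sum of 4 fibroblast markers was 3.39 to 3.69 and 1.21 to 1.22, with COL1A2 at 0 in 3 libraries. The leukocyte marker PTPRC was at 0.351 to 1.25, and PGR and ADIPOQ were not listed. Mitochondrial genes took 3.56% to 3.58% of the reads in the libraries numbered 1 and 3.97% to 4.78% in those numbered 2. The part of these differences in the results below was not tested. In bulk RNA, fewer cells that express a gene and less RNA per cell cannot be told apart.

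Among the EGR genes, which encode zinc-finger transcription factors that bind GC-rich sites, EGR1 was abundant in the libraries numbered 1 and nearly missing from those numbered 2. EGR1 (chr5:138465490-138469315, plus strand, 2 exons, hg38) was at 20.3 RPKM (3693 reads) in mimic NC 1 and at 20.6 (3445 reads) in miR-217 mimic 1, compared with 0.269 (40 reads) in mimic NC 2 and 0.234 (24 reads) in miR-217 mimic 2. The 95% Poisson intervals, which like the others here cover counting error only, were 19.7 to 21.0 and 19.9 to 21.3 RPKM in the former and 0.192 to 0.366 and 0.150 to 0.349 in the latter. The 2 numbers did not come near to each other, while within each number the intervals of the 2 transfections overlapped. The mean was 20.4 ± 0.185 RPKM (SD, n = 2) for number 1 and 0.252 ± 0.0245 for number 2, an 81.2-fold difference. The ratio was 75.5 among the mimic NC libraries and 87.8 among the miR-217 mimic libraries. Each number holds 1 library of each transfection. The SD of a number, here and below, and the limma error of this comparison thus include the difference between the transfections.

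EGR1 fell by 4.10 on the log2(RPKM + 1) scale in number 2 (SE 0.074, 95% confidence interval -4.29 to -3.91, limma adjusted p = 0.000538). This scale understates the change of genes near or below 1 RPKM, and with a pseudocount of 0.1 the EGR1 log2 fold change was -5.87. EGR1 passed the filter on low values through the libraries numbered 1, and without that filter its limma adjusted p was 0.00965. EGR1 had the lowest p of the 13871 genes tested and the 2nd lowest log2 fold change. The call held when any 1 library was left out, with adjusted p values of 0.000345 to 0.00429. The smallest p that an exact permutation of 4 libraries allows is 0.333, so the limma values rest on a spread estimated across all genes.

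EGR2 and EGR3, the paralogs of EGR1, were close to the limit of detection. EGR2 had 12 reads in mimic NC 1 and 24 in miR-217 mimic 1, compared with 0 in mimic NC 2 and 2 in miR-217 mimic 2. The 0 in mimic NC 2 allows up to 0.0172 RPKM, the worth of 3 reads (the two-sided 95% Poisson bound drawn in the plot of the 10 genes is 0.0211), beside 0.0561 RPKM in mimic NC 1. Summed over both transfections, the 36 reads against 2 correspond to a 12.9-fold higher rate in number 1, with an exact 95% interval of 3.33 to 111 for counting error. EGR3 had 10, 2, 8 and 4 reads in mimic NC 1, mimic NC 2, miR-217 mimic 1 and miR-217 mimic 2. Its rate ratio of number 1 over number 2 was 2.16, with an interval of 0.820 to 6.64 that includes equality, so no difference was detectable for EGR3 at this depth.

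**Figure D1:**
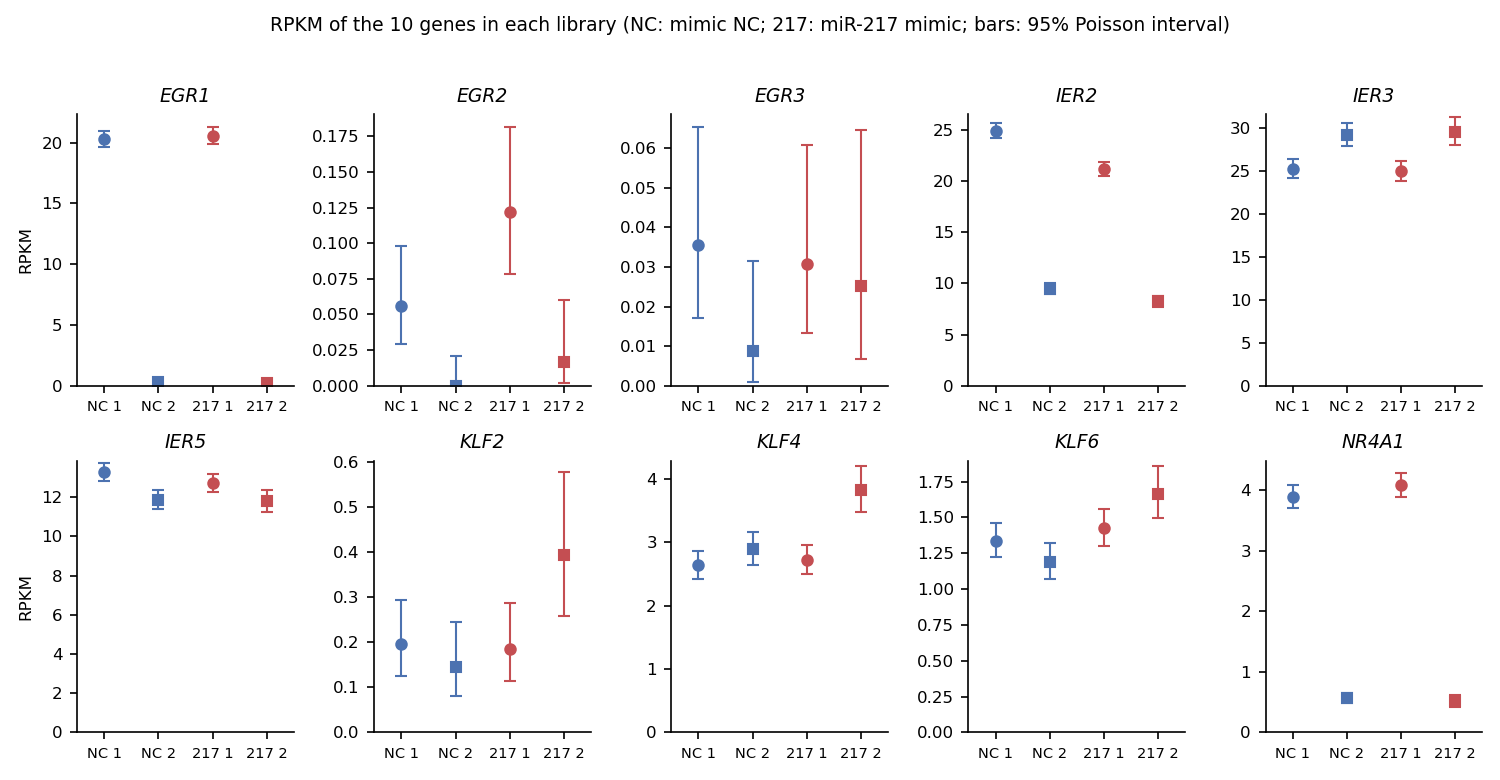
RPKM of each of the 10 genes (vertical axes, linear, each starting at 0) in the 4 libraries; circles are libraries numbered 1, squares are libraries numbered 2, blue is mimic NC, red is miR-217 mimic and bars are 95% Poisson intervals. EGR1, NR4A1 and IER2 are far lower in both libraries numbered 2 (EGR1 0.234 to 0.269 RPKM) than in both numbered 1 (20.3 to 20.6 RPKM), whereas IER3, IER5, KLF4 and KLF6 stay within 2-fold.

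NR4A1, an orphan nuclear receptor of the NUR77 type that is regulated mainly through its own transcription, showed the 2nd largest log2 fold change between the numbers among the 7 tested genes. NR4A1 (chr12:52022832-52059507, plus strand) was at 3.90 RPKM in mimic NC 1 and 4.09 in miR-217 mimic 1, compared with 0.564 in mimic NC 2 and 0.512 in miR-217 mimic 2. The groups defined by number did not overlap, and the means of 3.99 ± 0.135 and 0.538 ± 0.0366 RPKM (SD, n = 2) differed 7.42-fold, by 6.91-fold in mimic NC and 7.98-fold in miR-217 mimic. NR4A1 fell by 1.70 on the log2(RPKM + 1) scale (SE 0.083, limma adjusted p = 0.00882), the 13th lowest log2 fold change. It passed the filter on low values through the libraries numbered 1, and without that filter its limma adjusted p was 0.0911. Of its exon bases, 10.3% overlap RP11-1100L3.8 on the opposite strand, which was at 5.60, 1.22, 6.58 and 1.41 RPKM in mimic NC 1, mimic NC 2, miR-217 mimic 1 and miR-217 mimic 2. The library kit keeps strand, but the strand setting of the counting is not given in the sources used here, so reads of such pairs may be shared.

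The IER genes, which share a name but are not all of one family, differed in their values. On the log2(RPKM + 1) scale, IER2 was the 1 called after adjustment. IER2, a nuclear protein with roles in transcription and cell movement (chr19:13150415-13154908, plus strand), was at 24.9 RPKM in mimic NC 1 and 21.2 in miR-217 mimic 1, compared with 9.49 in mimic NC 2 and 8.24 in miR-217 mimic 2. The ratio of number 1 over number 2 was 2.62 in mimic NC and 2.57 in miR-217 mimic. IER2 fell by 1.28 on the log2(RPKM + 1) scale (SE 0.11, 95% confidence interval -1.58 to -0.99, limma adjusted p = 0.0156). The adjusted p was 0.0935 without the filter on low values, 0.0925 without mimic NC 1 and 0.0619 without miR-217 mimic 1. The opposite-strand gene CTC-250I14.6 overlaps 30.8% of the exon bases of IER2 and was at 65.1, 24.1, 55.0 and 20.3 RPKM in mimic NC 1, mimic NC 2, miR-217 mimic 1 and miR-217 mimic 2, so the IER2 level is uncertain.

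IER3, a regulator of apoptosis and of ERK signalling (chr6:30743199-30744554, minus strand, 1 exon), was at 25.3 RPKM in mimic NC 1 and 25.0 in miR-217 mimic 1, compared with 29.3 in mimic NC 2 and 29.6 in miR-217 mimic 2. It was therefore higher in both libraries numbered 2, by 1.17-fold between the means of 25.2 ± 0.167 and 29.5 ± 0.270 RPKM (SD, n = 2). The log2 fold change of IER3 was 0.22 (95% confidence interval 0.05 to 0.39) with an unadjusted limma p of 0.0207 and an adjusted p of 0.105. It was 0.23 without mimic NC 1 and 0.21 without miR-217 mimic 1. These fits leave 1 library in a group, so they cannot show whether the rise of IER3 holds. With limma voom on the recovered reads and a term for transfection, it was 0.27 with an adjusted p of 0.0393, so IER3 was called in that fit. An opposite-strand gene, XXbac-BPG252P9.10, overlaps 26.5% of the exon bases of IER3. It was at 29.9 RPKM in mimic NC 1 and 30.9 in miR-217 mimic 1, compared with 37.6 in mimic NC 2 and 35.8 in miR-217 mimic 2.

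IER5, which takes part in the heat shock response through HSF1 (chr1:181088712-181092899, plus strand, 1 exon), was at 13.3, 11.9, 12.7 and 11.8 RPKM in mimic NC 1, mimic NC 2, miR-217 mimic 1 and miR-217 mimic 2. Both libraries numbered 2 were the lower ones, but by 1.10-fold only. The log2 fold change of IER5 was -0.12 (95% confidence interval -0.30 to 0.05, limma adjusted p = 0.286).

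The KLF genes encode zinc-finger factors that bind GC boxes and CACCC sequences, and neither KLF4 nor KLF6 was called between the numbers, nor was a difference detectable in the summed reads of KLF2. KLF4, known from epithelial differentiation and cell reprogramming (chr9:107484852-107490482, minus strand), was at 2.64 RPKM in mimic NC 1, 2.90 in mimic NC 2, 2.72 in miR-217 mimic 1 and 3.83 in miR-217 mimic 2. KLF4 had a log2 fold change of 0.24 (95% confidence interval -0.08 to 0.56, limma adjusted p = 0.262), and its higher mean in number 2 rested mostly on miR-217 mimic 2. Without mimic NC 2, the log2 fold change of KLF4 was 0.39 with a limma adjusted p of 0.0298, and without miR-217 mimic 2 it was 0.08 with an adjusted p of 0.552.

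KLF6, a broadly expressed member (chr10:3775996-3785281, minus strand), was at 1.34, 1.19, 1.43 and 1.67 RPKM in mimic NC 1, mimic NC 2, miR-217 mimic 1 and miR-217 mimic 2, and the libraries of the 2 numbers overlapped. Its log2 fold change between the numbers was 0.02 (95% confidence interval -0.30 to 0.34, limma adjusted p = 0.921). KLF2, best known from endothelial cells and quiescent lymphocytes, had 23, 14, 20 and 26 reads in the same order of libraries. Summed over both transfections, its 43 reads against 40 gave a rate ratio of number 1 over number 2 of 0.773, with an exact 95% interval of 0.491 to 1.22 for counting error. The ratio was 1.34 (0.663 to 2.82) in mimic NC alone and 0.471 (0.249 to 0.876) in miR-217 mimic alone, and the difference between these ratios was not tested.

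Of the 7 tested genes, 3 (EGR1, NR4A1 and IER2) were lower in number 2 at an unadjusted limma p under 0.05, and this held for 17.4% of all tested genes. IER3 was the 1 gene of the 7 that was higher at that threshold, as were 12.8% of all tested genes. At an adjusted p under 0.05, EGR1, NR4A1 and IER2 were called, compared with 7.04% of all tested genes (977 genes). The libraries of number 2 lay below those of number 1 without overlap for EGR1, NR4A1, IER2 and IER5 among the 7 tested genes and for 35.5% of all tested genes. They lay above for IER3 and KLF4 and for 26.9% of all tested genes. Groups without overlap were thus common in this comparison. A log2 fold change of -1 or lower was measured in these 3 of the 7 genes and in 0.562% of all tested genes.

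The number of adjusted calls depended on the fit and on single libraries. With limma voom on the recovered reads, 2244 of 13871 genes were called, among them 3 of the 7. With limma voom and a term for transfection, 3722 genes were called, among them 4 of the 7, IER3 included. The share of 7.04% thus holds for the fit on log2(RPKM + 1) without that term. Without mimic NC 1 the adjusted calls went from 977 to 9 genes and without miR-217 mimic 1 to 13, and EGR1 was then the 1 gene of the 7 still called. The adjusted p of NR4A1 was then 0.0615 and 0.0558, and IER2 was not called either, with log2 fold changes that stayed between -1.73 and -1.17. Without mimic NC 2, 3931 genes were called, among them 4 of the 7. The median log2 fold change was -0.12 over the 7 genes and -0.04 over all tested genes, and the 7 genes ranged from -4.10 to 0.24.

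**Figure D2:**
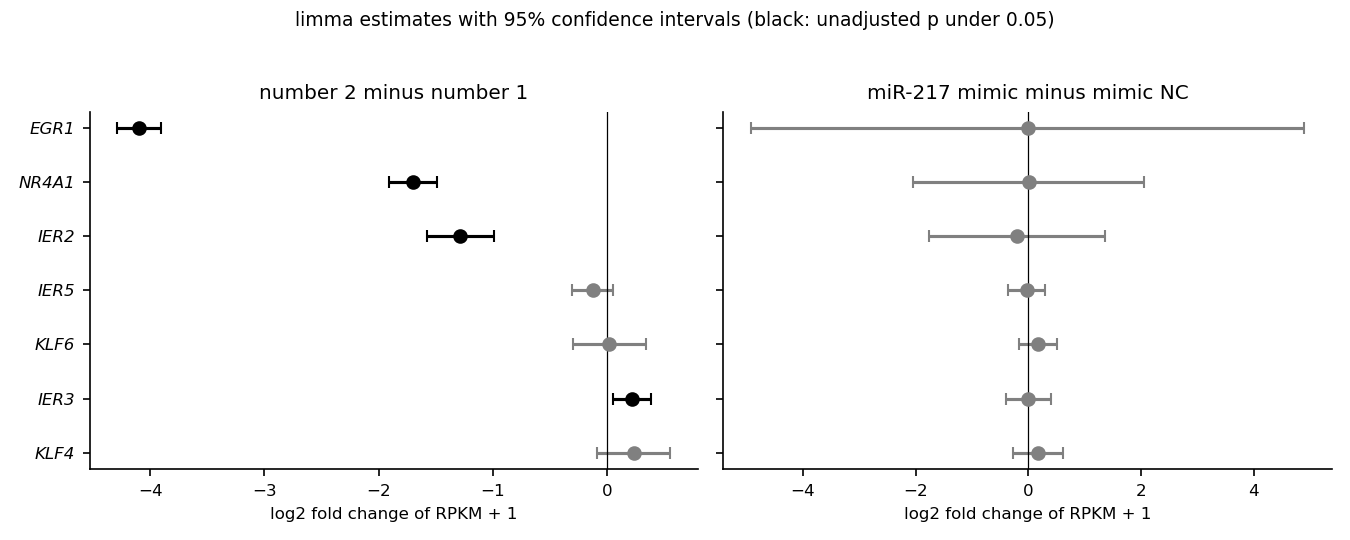
log2 fold change of RPKM + 1 (horizontal axes) of the 7 tested genes with 95% confidence intervals from limma, for number 2 minus number 1 (left) and miR-217 mimic minus mimic NC (right). On the left EGR1 (-4.10), NR4A1 (-1.70) and IER2 (-1.28) lie far below 0, and on the right every interval includes 0 and that of EGR1 runs from -4.92 to 4.90.

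The order of the genes by RPKM differed between the numbers as well. IER3 had the highest level of the 10 in every library. EGR1 was the third highest in both libraries numbered 1, close to IER2, whose interval in miR-217 mimic 1 (20.5 to 21.9 RPKM) overlapped that of EGR1, and in the libraries numbered 2 it was the seventh and the eighth. IER5 moved from the fourth to the second place with nearly the same level, and KLF4 and KLF6 moved ahead of NR4A1. In mimic NC 1, the intervals of IER2 (24.2 to 25.7 RPKM) and IER3 (24.2 to 26.4 RPKM) overlapped.

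The comparison that the series was made for is miR-217 mimic against mimic NC. By limma without a term for the number, it gave no call among these genes. None of the 7 passed an unadjusted p under 0.05, with p values of 0.243 to 0.997, and 0 of 13871 genes (0%) passed at an adjusted p. At an unadjusted p under 0.05, 165 genes passed, and those higher with miR-217 mimic were 0.483% of all tested genes and those lower were 0.707%. With limma voom on the recovered reads, 81 genes passed unadjusted and 0 adjusted. With the replicate number as a block in limma, 1046 genes passed unadjusted and 0 adjusted. With block and voom together, 1391 passed unadjusted and 8 adjusted. IER2 was the 1 gene of the 7 that passed unadjusted in both fits with a block, and none of the 7 passed adjusted. The median log2 fold change was 0.00 over the 7 genes and -0.02 over all tested genes.

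EGR1, the gene with the seed match, was at 20.3 and 20.6 RPKM in mimic NC 1 and miR-217 mimic 1 and at 0.269 and 0.234 in mimic NC 2 and miR-217 mimic 2. The ratio of miR-217 mimic over mimic NC was 1.01 within number 1 and 0.871 within number 2, where it rested on 24 and 40 reads. Its log2 fold change was -0.01, but the standard error of 1.88 was set by the difference between the numbers, so this fit cannot show a small change of EGR1. The same applied to NR4A1, whose ratio was 1.05 within number 1 and 0.908 within number 2, and whose 95% confidence interval ran from -2.05 to 2.06. With the replicate number as a block, the unadjusted limma p was 0.891 for EGR1 and 0.973 for NR4A1, so neither was called.

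IER2 was lower with miR-217 mimic within both numbers, at a ratio of 0.850 in number 1 and 0.868 in number 2. IER2 had a log2 fold change of -0.20 (SE 0.60, limma adjusted p = 1.00), and with the replicate number as a block the same value had an unadjusted limma p of 0.0363 and an adjusted p of 0.633. The libraries of the 2 transfections overlapped for IER2, since those numbered 2 were lowest in both.

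For the genes that varied little with the number, the intervals were narrower. IER3 had a log2 fold change of 0.00 (95% confidence interval -0.39 to 0.40) and IER5 one of -0.03 (-0.36 to 0.29). KLF4 was at 0.17 (-0.27 to 0.61) and KLF6 also at 0.17 (-0.16 to 0.50, limma adjusted p = 1.00). KLF6 was the 1 gene of the 7 whose miR-217 mimic libraries both lay above the mimic NC libraries, as in 9.72% of all tested genes, and none of the 7 lay below without overlap, compared with 13.5% of all tested genes. The larger ratios of KLF4 (1.32) and KLF6 (1.40) within number 2 compare with 1.03 and 1.07 within number 1. KLF2 had 26 reads in miR-217 mimic 2 and 14 in mimic NC 2, a ratio of 2.70 in RPKM, and 20 and 23 reads within number 1, a ratio of 0.944.

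The genes that lay nearest to EGR1 in their profile over the 4 libraries, by Euclidean distance of centred log2(RPKM + 1) among 13864 other tested genes, were FOS, FOSB, RPS24P17, ANKRD1 and CTGF. FOS, the AP-1 subunit, was nearest at a distance of 0.597, with 42.4 and 37.1 RPKM in the libraries numbered 1 and 0.548 and 0.643 in those numbered 2. FOSB, its paralog, followed at 1.29 with 8.15 and 6.80 RPKM against 0.167 and 0.221. These first neighbours are thus serum-induced genes of the AP-1 family.

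RPS24P17, a ribosomal protein pseudogene whose reads may belong to its parent gene, lay at 1.37. ANKRD1, a muscle and endothelial ankyrin repeat protein, lay at 1.57, and CTGF, a secreted matrix protein that YAP and SRF regulate, at 1.64 with 22.5 and 22.9 RPKM against 2.44 and 4.01. Of the other 6 tested genes described here, NR4A1 lay at a distance of 2.40 from EGR1 and IER2 at 2.82, while IER5, KLF6, IER3 and KLF4 lay at 3.97 to 4.34. This distance depends on the size of the differences as well as on their direction.

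**Figure D3:**
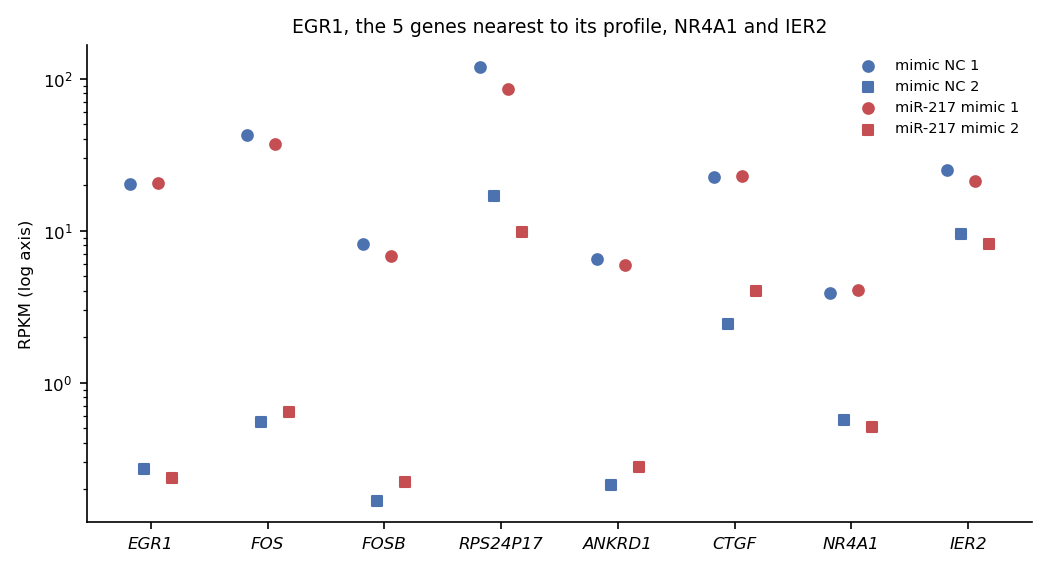
RPKM (logarithmic vertical axis) of EGR1, the 5 genes nearest to its profile, NR4A1 and IER2 in each library; circles are libraries numbered 1, squares are numbered 2, blue is mimic NC and red is miR-217 mimic. In every gene shown the circles lie above the squares, for example at 20.3 against 0.269 RPKM for EGR1 and 24.9 against 9.49 RPKM for IER2 in mimic NC.

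Other genes of the same pathways were described by lists written by hand with earlier results of these data known. The counts below therefore describe these lists and are not a test of them. Of 30 other serum-induced early genes outside AP-1, 26 were tested, and 17 were lower and 2 higher in number 2 at an unadjusted limma p under 0.05, with 15 calls at an adjusted p (14 lower and 1 higher) and a median log2 fold change of -0.60. Of all tested genes, 17.4% were lower, 12.8% were higher and 7.04% were called after adjustment. CTGF (-2.51), SGK1, a serum-induced kinase (-1.75), NFKBIZ, a nuclear regulator of NF-kappaB (-1.48), and ID3, an inhibitor of helix-loop-helix factors (-1.47), fell with limma adjusted p values of 0.0104 to 0.0294. DUSP1, the phosphatase that switches off MAP kinases, had a log2 fold change of -1.67 with an adjusted p of 0.0580 and was at 240, 101, 206 and 47.5 RPKM in mimic NC 1, mimic NC 2, miR-217 mimic 1 and miR-217 mimic 2. The 1 call in the other direction was PMAIP1, a pro-apoptotic BH3 protein, at 0.94 (limma adjusted p = 0.0147), which was named after its value was seen. The log2 fold change of EGR1 lay below all of these.

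Actin and contractile genes, another class of SRF targets, had 12 tested members, of which 6 were lower and 1 higher, with 4 adjusted calls and a median of -0.22, beside the same 17.4%, 12.8% and 7.04% of all tested genes. MYL9, a myosin light chain, fell by 1.27 and ACTB, the cytoplasmic beta-actin, by 0.73 on the log2 scale, with limma adjusted p values of 0.00998 and 0.0401. TAGLN2 (-0.54) and VCL (-0.37) were also called at an adjusted p, and ACTG1 (-0.54) had an adjusted p of 0.0633. These changes were smaller than those of EGR1 and NR4A1.

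The upstream regulators of these genes include SRF, which was at 9.01, 9.89, 9.37 and 9.50 RPKM in mimic NC 1, mimic NC 2, miR-217 mimic 1 and miR-217 mimic 2. Of 12 tested regulators, 2 were higher (FOXO1 at 0.38 and ELK4, a ternary complex factor, at 0.34) and 1 was lower at an unadjusted limma p under 0.05, beside 12.8% and 17.4% of all tested genes. The lower gene was MKL1, now named MRTFA, the actin-regulated partner of SRF, which fell by 0.53 (limma adjusted p = 0.0413) and was the 1 regulator called after adjustment, as were 7.04% of all tested genes. The median of the list was 0.07.

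Of 8 tested partners of the EGR and NR4A proteins, CREBBP, a histone acetyltransferase, was higher (0.32) and RXRB, a dimer partner of NR4A1, was lower (-0.23) at an unadjusted limma p under 0.05, with 0 adjusted calls and a median of -0.02. None of 7 tested other KLF genes passed, and their median was 0.03. Of 10 factors that bind AU-rich mRNAs, 3 were lower and 1 was higher (TIAL1, 0.24). For all 3 lists the shares of all tested genes were again 17.4% lower, 12.8% higher and 7.04% called after adjustment. ZFP36, which speeds the decay of AU-rich mRNAs and is itself serum-induced, fell by 1.00 (limma adjusted p = 0.0316), ZFP36L1 had a log2 fold change of -0.61 and TIA1 one of -0.23, and ZFP36 was the 1 call after adjustment. ZFP36 passed the filter through the libraries numbered 1 (2.57 and 2.15 RPKM against 0.515 and 0.854). SRF, KLF10 and ZFP36 are in 2 lists each. In the comparison of miR-217 mimic with mimic NC, the lists held 1 gene with an unadjusted limma p under 0.05. It was the regulator MEF2A (-0.32, not called after adjustment), beside 0.707% of all tested genes lower and 0.483% higher.

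**Figure D4:**
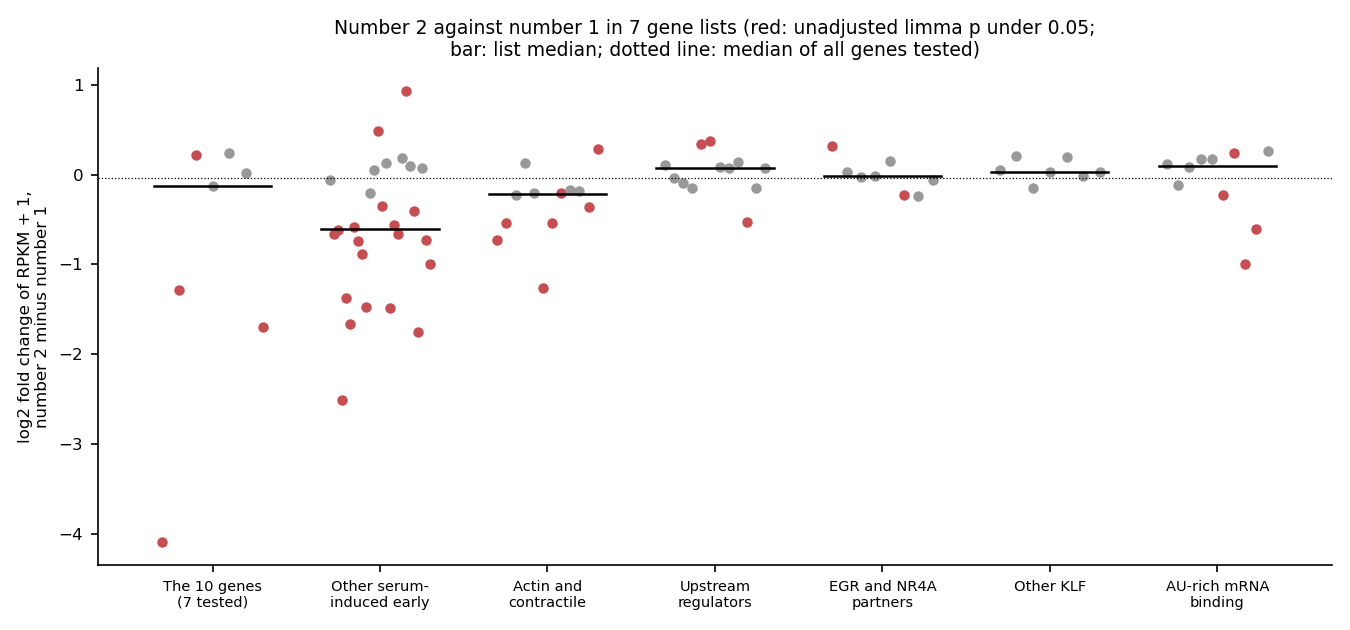
log2 fold change of RPKM + 1, number 2 minus number 1 (vertical axis), of each tested gene in the 7 tested immediate-early genes described here and in 6 related lists; red points have an unadjusted limma p under 0.05, black bars are list medians and the dotted line is the median of all tested genes. The other serum-induced genes centre at -0.60 and the upstream regulators at 0.07, and EGR1 at -4.10 is the lowest point shown.

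Most of the 10 genes are compact, a feature that was not used to choose them. Their median genomic span was 5062.5 bases, compared with 22548 bases for all tested genes, and their median number of merged exons was 3.5 compared with 8. Of the 10 genes, 8 span under 20000 bases, as do 47.2% of the tested genes. EGR2 (107905 bases, 10 exons) and NR4A1 (36676 bases, 11 exons) were the exceptions. The median summed exon length, 3674 bases, was near the 3848 bases of all tested genes. IER3 and IER5 have 1 exon each.

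Other promoter motifs were searched on both strands in the same RefSeq windows, and shares are given for the 27305 genes with an entry and for the 8350 of them that were tested. The GC box (GGGCGG), to which SP and KLF factors bind, occurred in 6 of the 8 genes (EGR2, IER2, KLF2, KLF4, KLF6 and NR4A1) and in 48.3% of genes and 77.2% of tested genes. The CRE core (TGACG) occurred in 4 (EGR1, EGR2, IER2 and KLF4) and in 28.4% of genes and 41.8% of tested genes. The whole CRE (TGACGTCA), which holds that core, occurred in none of the 8 and in 2.25% of genes and 3.96% of tested genes. The ETS core (CCGGAA) occurred in IER2, IER5 and NR4A1 and in 20.1% of genes and 36.8% of tested genes. The counts of GC boxes, CRE cores and ETS cores were thus near the shares of tested genes.

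An EGR site (GCGGGGGCG or GCGTGGGCG), which can share bases with a GC box, occurred in KLF2 and KLF6 and in 6.95% of genes and 11.8% of tested genes. The TATA box letters (TATAAA) occurred in none of the 8 and in 14.0% of genes and 7.89% of tested genes. Of the 3 tested genes that fell, EGR1 thus has CArG boxes and CRE cores, IER2 has a CRE core, an ETS core and GC boxes, and NR4A1 has an ETS core and a GC box in these windows. A match is a description of letters and not a bound site.

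In the 3'UTRs, the pentamer ATTTA, the core of AU-rich elements, occurred in 9 of the 10 genes, IER2 being the exception, and in 72.6% of the tested genes. Its density was highest in IER3, at 6.64 per kilobase, followed by NR4A1 at 5.33, compared with a median of 1.66 for the tested genes. EGR1 had 1 pentamer, at 0.810 per kilobase. Of the 3 tested genes that fell, EGR1 and IER2 thus have few or no pentamers and NR4A1 has many per kilobase.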

How the data were processed

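The authors deposited RPKM values for each gene, scaled by reads summed over the listed genes, and a length column holding the summed exon bases (another unit, in bases), per the file headers. The submitters' processing notes name Trimmomatic 0.36, featureCounts of Subread 1.5.1, edgeR 3.12.1 and hg38. The aligner and the annotation are not given in the sources used here. All nonzero values were whole multiples (100%, within 0.01 reads) of the worth of 1 read, so reads and depth were recovered. Differences were tested two-sided on log2(RPKM + 1) by limma 3.58.1 (R 4.3.3, empirical Bayes with a variance trend), over all 4 libraries and for genes whose mean RPKM reached 1, with Benjamini-Hochberg adjustment over all tested genes at 0.05. With 2 libraries per group the precision is limited. Read intervals are exact at the 95% level and floors use 3 reads.

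Members and lists were chosen with earlier results of these data known. Named were the 10 genes, up to 5 genes per list and comparison with an unadjusted p under 0.05 and the largest change, and the 5 genes nearest to EGR1. The fits were tried on simulated reads with 200 changed genes and no other expression difference set. The fit on log2(RPKM + 1) recovered 98.5% of them for transfection and 94% for number, and called 24 and 15 unchanged genes. With a second term it called 50 and 47 unchanged genes. The simulated libraries lacked the broad difference between the numbers seen in these data, so they cannot show how the fits perform here. Alternatives were a pseudocount of 0.1, no filter or a minimum mean RPKM of 5, centring on medians, limma voom with TMM factors on recovered reads, a term for number or transfection, and leaving out each library. Sequences came from RefSeq (GRCh38.p14) and GENCODE 29. Python 3.11.15 and matplotlib 3.10.9 were used.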

Additional observations from a re-analysis of the deposited data

Results flagged for a closer look

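For 5 of the 10 genes, the log2(RPKM + 1) difference of miR-217 mimic minus mimic NC had opposite signs within number 1 and within number 2. Each difference compares 1 library with 1 library, so whether they differ was not tested. The value in number 2 minus that in number 1 was -0.058 for EGR1, -0.10 for NR4A1, 0.030 for EGR3, 0.031 for IER3 and 0.30 for KLF2. EGR1 and NR4A1 were slightly higher with miR-217 mimic within number 1 and slightly lower within number 2, where EGR1 had 24 and 40 reads and NR4A1 had 122 and 195, and IER3, EGR3 and KLF2 showed the opposite order. The values of EGR3 and KLF2 rest on 2 to 10 and 14 to 26 reads per library. For EGR3 the pseudocount flattens the difference, and its ratio of miR-217 mimic over mimic NC was 0.869 within number 1 and 2.90 within number 2.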

How the results depend on the processing

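For number 2 against number 1, EGR1, NR4A1 and IER2 kept their direction and an unadjusted p under 0.05 under every alternative that could test them, and 3 to 5 genes passed, of 7 tested (4 tested at a mean RPKM of at least 5 and 10 without a filter). Without a filter on low values, 3 genes of all and EGR1 alone of the 10 had an adjusted p under 0.05, over 32955 genes. The unadjusted count over all genes, 4184, was 2474 at a mean RPKM of at least 5, which leaves 6953 genes, and ranged from 1832 to 6037 when 1 library was left out. KLF6 ranged from -0.12 to 0.16 there and IER3 from 0.21 to 0.23, and KLF4 was at 0.35 (unadjusted p under 0.05) with limma voom and a transfection term. For miR-217 mimic against mimic NC, the count of 165 was 877 without a filter, 48 at a mean RPKM of at least 5, 81 with limma voom, and 93 to 866 when 1 library was left out (866 without miR-217 mimic 1). With the replicate block it was 1046, and 1391 with block and voom together (8 adjusted), and IER2 then made 1 call of 7 in both (-0.20). The number 1 libraries deviated from their group means with a correlation of 0.68 across 13871 genes. With 2 pairs, and with labels that do not say what kind of replicate is meant, the block is given as an alternative. The sign of EGR1 turned with median centring (0.015), which moves all genes alike, and with voom (0.21) and block with voom (0.026). That of NR4A1 turned with a pseudocount of 0.1 (-0.025). Both log2 fold changes were near 0 to begin with, so these turns say little about either gene. Leaving out 1 library leaves the numbers unbalanced between the transfections, and gave -2.08 to 2.05 for EGR1, -0.87 to 0.88 for NR4A1, -0.86 to 0.45 for IER2, -0.11 to 0.12 for IER3, -0.11 to 0.043 for IER5 and -0.017 to 0.36 for KLF4. The lone library is then assumed to vary like the others. The other causes were not tested. Depth limits EGR2, EGR3 and KLF2, at 0 to 26 reads per library.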
